A study of Rattus norvegicus with 36 samples.

Results

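The genes described here encode 6 neuropeptide precursors of the striatum, Penk, Pdyn, Tac1, Cartpt, Npy and Sst, read from the accumbens messenger RNA of 9 Sprague-Dawley rats. They were taken by name, through their Ensembl identifiers, from a table of 32402 genes. No rule on measured values chose them, but earlier results of these data were known when they were chosen. The counts of a rat were summed over 4 technical replicates and scaled by library size and TMM factors to CPM, a measure of a gene's share of the counts in its library. The identifiers were ENSRNOG00000008943 (Penk), ENSRNOG00000026036 (Pdyn), ENSRNOG00000007374 (Tac1), ENSRNOG00000017712 (Cartpt), ENSRNOG00000046449 (Npy) and ENSRNOG00000001837 (Sst). The deposited files carry no gene names, so these names rest on the list of members alone.

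All rats were 8 weeks old and went through conditioned place preference, in which an animal comes to link a compartment with a drug. Saline rats (n = 3) received 4 injections of physiological serum, 15 days of withdrawal and 1 further serum injection. CPPE rats (n = 3, labelled dependent) and nCPPE rats (n = 3, labelled non dependent) both received 4 cocaine injections on separate days, 15 days of withdrawal and 1 cocaine injection of 5 mg/kg. CPPE rats expressed the preference for the cocaine compartment and nCPPE rats did not. The preference test of 18 min followed the last injection at once, and the series text also names an extinction phase of 12 days. The sources used here do not state the conditioning dose, the rats' sex or how a rat was judged to express the preference. The tissue label is nucleus accumbens for every library, whereas the extraction text names the caudate putamen as well.

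The striatum is built mainly of GABAergic spiny projection neurons of different output pathways, and each class is known by its peptides. Neurons of the indirect pathway, which carry D2 dopamine receptors, make enkephalin from the Penk precursor. Neurons of the direct pathway, which carry D1 receptors, make dynorphin from Pdyn and substance P from Tac1. CART peptide, from Cartpt, is made in part of the accumbens neurons and has long been studied as a transcript regulated by cocaine and amphetamine. Sst and Npy, the precursors of somatostatin and neuropeptide Y, are textbook markers of one sparse class of striatal interneurons. Dynorphin is a ligand of the kappa opioid receptor and enkephalin mainly of the delta and mu receptors.

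Depth was 27724289 to 39067715 counts per rat. The Saline 2 library stood apart from all others over the whole transcriptome. In Saline 2, 3504 of 15555 genes tested (22.5%) departed by more than 2-fold from the average of the remaining rats, beside 28 to 160 genes in each other rat. Results that involve the Saline group are therefore given with and without this rat. The files hold no names, so lists of cell type markers could not be read, and the tissue label could not be checked. No library was labelled as caudate putamen, which the extraction text also names, so the peptide genes were not used to tell it from the accumbens. Penk, Pdyn, Tac1, Cartpt and Sst were all detected in every rat, with 1998 (Sst in Saline 3) to 37452 (Penk in Saline 2) counts.

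Npy went against its name. Its row held 1 count in CPPE 1, 1 count in nCPPE 1 and 0 counts in the other rats, which puts it among the 12091 genes (37.3%) with at most 2 counts in all. With a floor of 3 counts per library, these depths allow levels of up to 0.0768 CPM in the deepest and 0.108 CPM in the shallowest library. Sst, the precursor made by the same interneurons, was read 1998 to 5706 times per rat. Whether reads of Npy were counted under another identifier or left uncounted was not tested, so nothing is drawn from the row about the mRNA. Npy did not pass the filter on low counts, and 5 of the 6 genes enter the comparisons below.

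Penk, the enkephalin precursor, was read at 717, 1342 and 728 CPM in Saline 1, 2 and 3. The CPPE rats had 956, 813 and 704 CPM, and the nCPPE rats 902, 1026 and 703 CPM. Saline 2 was the highest of all rats, Saline 1 and 3 lay close to the lowest values of both cocaine groups, and all groups overlapped. Means (± SD, n = 3 each) ran from Saline (929 ± 358 CPM) through nCPPE (877 ± 163 CPM) to CPPE (824 ± 126 CPM), an order in which no neighbours differed by more than their spread. Without Saline 2 the Saline mean was 723 CPM and moved from the top of that order to the bottom. In bulk tissue, fewer cells that make a peptide and less of its mRNA per cell cannot be told apart, which holds for every gene below.

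Pdyn, the dynorphin precursor, varied least of the 5 genes. Saline rats had 314, 413 and 273 CPM, CPPE rats 337, 321 and 313 CPM, and nCPPE rats 352, 303 and 330 CPM. The extremes on both sides were Saline rats, Saline 2 at the top and Saline 3 at the bottom, with all 6 cocaine rats between them. The coefficient of variation over rats was 3.72% in CPPE and 7.43% in nCPPE rats, beside 21.6% in Saline rats and 10.02% in Saline 1 and 3 alone. The edgeR estimate of biological variation, 7.50% without Saline 2, was lower than that of all but 25.0% of genes.

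Tac1, the precursor of substance P and neurokinin A in the same direct-pathway neurons, was at 193, 227 and 149 CPM in Saline 1, 2 and 3. The CPPE levels were 166, 203 and 185 CPM, and the nCPPE levels 199, 166 and 235 CPM. It was the sole gene of the 5 for which Saline 2 was not the highest rat, since nCPPE 3 lay above it. Means (± SD, n = 3 each) ran from nCPPE (200 ± 34.9 CPM) through Saline (190 ± 39.3 CPM) to CPPE (185 ± 18.3 CPM), and the groups overlapped. Without Saline 2 the Saline mean was 171 CPM, the lowest of the 3.

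Cartpt, the CART precursor, had the widest spread once Saline 2 was set aside. Saline rats had 140, 256 and 96.9 CPM, CPPE rats 120, 125 and 155 CPM, and nCPPE rats 125, 103 and 187 CPM. The highest and lowest rats of all 9 were again both Saline rats. Without Saline 2 the 8 rats still covered a 1.93-fold range, from Saline 3 to nCPPE 3, and the estimate of biological variation was 18.4%, higher than in 77.7% of genes.

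Sst, the interneuron peptide, was the one of the 5 genes whose cocaine groups did not overlap. CPPE rats had 64.7, 80.5 and 71.3 CPM, and nCPPE rats had 87.1, 104 and 101 CPM. Every CPPE rat lay below every nCPPE rat, and 8.49% of all tested genes likewise had no overlap between these groups in one direction or the other. Saline 1 and Saline 3, at 80.6 and 71.9 CPM, lay within or at the edge of the CPPE range, while Saline 2, at 204 CPM, was far above all others. The plot of levels by group shows this for each gene.

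**Figure D1:**
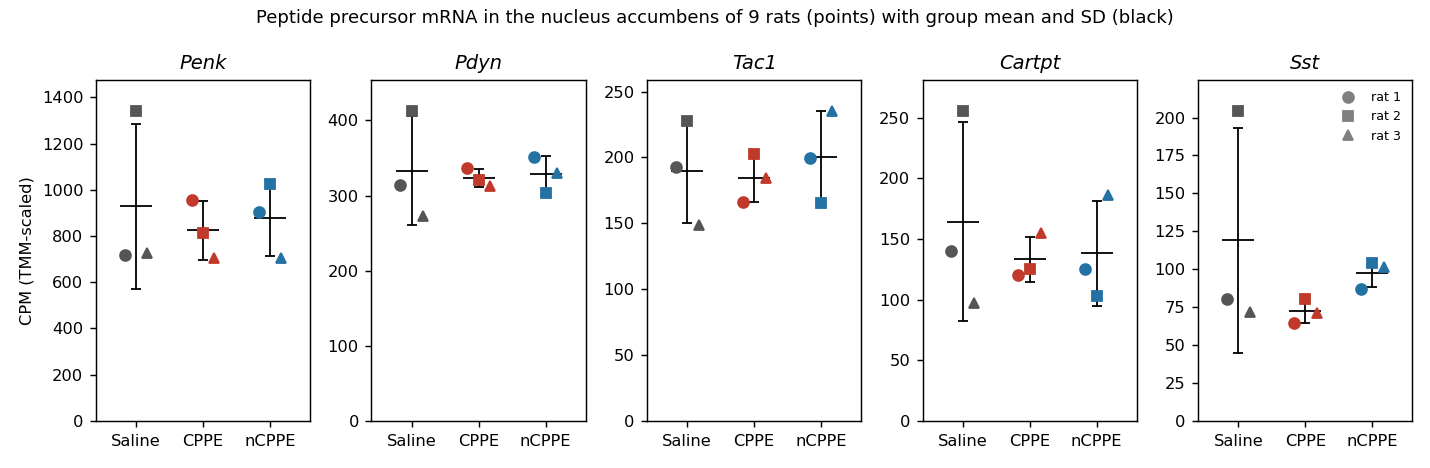
Levels of 5 peptide precursor mRNAs in 9 rats. The y axis is TMM-scaled CPM from 0, the x axis the group, symbols mark the rat number within a group, and black bars give mean and SD (n = 3). Saline 2 (grey square) tops every panel but Tac1, and in the Sst panel the 3 CPPE rats (64.7 to 80.5 CPM) sit below the 3 nCPPE rats (87.1 to 104 CPM), a lack of overlap shared by 8.49% of all genes.

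Counting error was small beside these differences, with a coefficient of variation from counting alone of at most 2.24% in any rat for these 5 genes. The 4 technical replicates of a rat were tested for each of the 5 genes with a chi-square test on their counts, and 4 of 45 tests had p below 0.05. The lowest chi-square p was 0.00312, for Tac1 in Saline 3. Among all genes with at least 40 counts in a rat, 4.91% to 5.38% per rat had p below 0.05 by the same test. These intervals and tests cover sampling of reads, not differences between animals.

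The size of Saline 2's departure differed between the genes. Against the mean of the other 8 rats, on the log2(CPM + 0.5) scale, Sst was 1.32 higher, Cartpt 0.99, Penk 0.73, Pdyn 0.38 and Tac1 0.29. Of all tested genes, 1.39% lay as high as Sst in that rat, 7.19% as high as Cartpt and 16.3% as high as Penk. Pdyn and Tac1 were exceeded by 32.0% and 36.1% of genes. All 5 genes were thus higher in Saline 2, but just Sst stood in the uppermost few percent of its transcriptome. Saline 3 was lower than the other rats for all 5 genes, from -0.26 for Penk to -0.58 for Cartpt. In that rat 26.4% of all tested genes lay as far from the others as Penk, and 3.52% as far as Cartpt. In the rats other than Saline 2 and Saline 3 the 5 genes did not all share a sign. nCPPE 3 was the lowest rat for Penk, at -0.32, and the highest for Tac1, at 0.35. nCPPE 2 was high for Penk, at 0.29, and low for Cartpt, at -0.48. The map of deviations by rat shows these opposite signs.

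**Figure D2:**
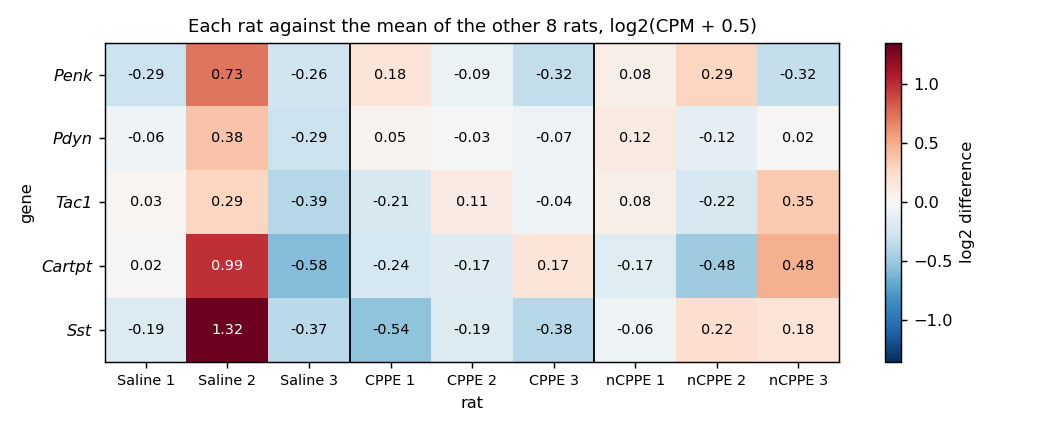
Deviation of each rat from the mean of the other 8 rats, as a log2 difference of CPM + 0.5, for 5 genes (rows) and 9 rats (columns, groups parted by black lines). Red is higher and blue lower, and the printed value is the difference. The Saline 2 column is red throughout, from 0.29 for Tac1 to 1.32 for Sst. The Saline 3 column is blue throughout, from -0.26 for Penk to -0.58 for Cartpt. Penk and Cartpt have opposite signs in nCPPE 2 and nCPPE 3.

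Setting CPPE against nCPPE rats asked whether peptide mRNA went with expressing the preference at the same cocaine treatment. None of the 5 genes passed the test, and all 5 estimates were lower in CPPE rats. edgeR's quasi-likelihood test called 0 of 15555 genes (0%) at an adjusted p below 0.05, and 84 genes (0.54%) had an unadjusted p below 0.05. By limma-voom 0 genes were called and by DESeq2 2, no peptide gene among them. Sst had the largest difference, at -0.43 ± 0.36 (log2, SE; 95% interval -1.24 to 0.38), with means of 72.2 CPM (CPPE, range 64.7 to 80.5) against 97.4 CPM (nCPPE, range 87.1 to 104). Its adjusted p was 1.0 in edgeR. Groups did not overlap for 1 of the 5 genes, Sst, beside 1321 of all tested genes (8.49%), and 5.89% of genes had a difference as large in either direction. The other estimates were -0.12 ± 0.19 for Tac1, -0.09 ± 0.27 for Penk, -0.05 ± 0.35 for Cartpt and -0.02 ± 0.16 for Pdyn (SE), each within its own error. The sign of each of these 4 turned when 1 rat was left out, for Penk without CPPE 3 (0.012) or nCPPE 2 (0.038) and for Pdyn without CPPE 3 (0.0031) or nCPPE 1 (0.033). Tac1 turned without nCPPE 3 (0.015), and Cartpt without CPPE 1 (0.017) or nCPPE 3 (0.22). The median of the 5 genes was -0.09, beside -0.00106 over all genes.

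The error of that estimate rests on a spread shared by all 3 groups, Saline 2 included. Without that rat the log2 difference of Sst was again -0.43, now with an SE of 0.10 and a 95% interval of -0.65 to -0.21. The unadjusted p in this genome-wide edgeR fit was 0.00166, and the adjusted p over 15750 genes was 0.971. In the same fit 556 genes (3.53%) had an unadjusted p below 0.05 and 1338 genes (8.5%) had groups without overlap, beside 0% called after adjustment. DESeq2 without Saline 2 gave Sst an adjusted p of 0.322, the lowest of 16 alternatives, whose range was 0.322 to 1.0. Over those 16 alternatives the estimate was always negative, between -0.52 and -0.36. With every CPPE rat below every nCPPE rat, leaving out 1 rat could not turn that sign, so the constant sign mainly restates the lack of overlap.

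In the comparison of CPPE with Saline rats, which asked how cocaine-treated animals that expressed the preference differed from serum controls, none of the 5 genes passed edgeR's test. The groups differed in the conditioning injections and in the last injection before the test, and effects of these cannot be told apart. The call rate over all genes was 0% at an adjusted p below 0.05 (0.894% at an unadjusted p below 0.05), and adjusted p of the 5 genes was 0.882 to 0.956. DESeq2 and limma-voom also called 0 genes. All 5 estimates were negative, from -0.72 ± 0.36 for Sst through -0.30 ± 0.35 for Cartpt and -0.17 ± 0.27 for Penk to -0.04 for both Pdyn and Tac1 (log2, SE). Groups overlapped for all 5 genes, where 5.72% of all genes did not overlap. Without Saline 2, 4 of the 5 signs turned. Penk was then 0.19 ± 0.16 higher in CPPE rats, Cartpt 0.17 ± 0.24, Pdyn 0.14 ± 0.09 and Tac1 0.11 ± 0.16, while Sst was -0.08 ± 0.11. None of the 5 passed there either (0% of all genes called, 5.9% at an unadjusted p below 0.05), and all 5 overlapped where 25.2% of genes did not. Saline 1 lay above the CPPE mean for Tac1 (193 against 185 CPM) and Cartpt (140 against 133 CPM). The positive signs of Tac1 and Cartpt without Saline 2 thus rested on Saline 3.

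In the comparison of nCPPE with Saline rats, the same question for animals without the preference, no gene of the 5 passed (0% of all genes at an adjusted p below 0.05, 1.15% at an unadjusted p below 0.05). Adjusted p was 0.937 to 0.980 in edgeR. DESeq2 called 2 genes, neither of them a peptide gene, and limma-voom 0. Estimates were -0.29 ± 0.36 for Sst, -0.25 ± 0.35 for Cartpt, -0.08 ± 0.27 for Penk, -0.02 ± 0.16 for Pdyn and 0.08 ± 0.19 for Tac1 (log2, SE), and all 5 genes overlapped between the groups, where 4.02% of all genes did not. Without Saline 2 all 5 were positive. Sst was then 0.35 ± 0.11 higher in nCPPE rats (unadjusted p 0.0109 in the genome-wide edgeR fit, adjusted p 0.787), with Penk at 0.28 ± 0.16, Tac1 at 0.23 ± 0.16, Cartpt at 0.22 ± 0.24 and Pdyn at 0.16 ± 0.09. In that fit 6.12% of genes had an unadjusted p below 0.05, and Sst was the one peptide gene without overlap, beside 24.7% of all genes when only 2 Saline rats remain. The positive sign of Cartpt without Saline 2 rested on Saline 3, since Saline 1 (140 CPM) lay above the nCPPE mean (138 CPM). Both comparisons with Saline use the same Saline rats, so their estimates are not independent.

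With both cocaine groups together as 6 rats against 3 Saline rats, edgeR's adjusted p of the 5 genes was 0.825 to 0.971, and no gene in the table was called (0%, with 1.24% at an unadjusted p below 0.05). DESeq2 called 1 gene, not a peptide gene, and limma-voom 0. Sst was at 84.8 ± 15.8 CPM in cocaine and 119 ± 74.1 CPM in Saline rats (SD), a log2 difference of -0.51 ± 0.30 (SE). Cartpt was at -0.28 ± 0.30, Penk at -0.13 ± 0.23, Pdyn at -0.03 ± 0.14 and Tac1 at 0.02 ± 0.16. Without Saline 2 all 5 were positive, from 0.14 ± 0.10 for Sst to 0.24 ± 0.15 for Penk, with adjusted p of 0.754 to 0.869 from edgeR (0% of genes called, 6.7% at an unadjusted p below 0.05). All 5 genes overlapped between these sets both with Saline 2 (1.03% of all genes did not) and without it (11.3%). Penk, Pdyn, Cartpt and Sst thus turned direction without Saline 2, and Tac1 turned without Saline 3 (-0.13), CPPE 2 (-0.020) or nCPPE 3 (-0.049). Without Saline 2 the Saline group was Saline 1 and Saline 3 alone. Saline 1 was not below the cocaine mean for Tac1 (192.9 against 192.3 CPM) or Cartpt (140 against 136 CPM). The positive signs of Tac1 and Cartpt without Saline 2 thus rested on Saline 3, whereas Saline 1 was also below the cocaine mean for Penk, Pdyn and Sst.

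As far as their assumption of 1 shared spread holds, the intervals bound what could have been missed. With all rats, the 95% interval lay within a 2-fold change in either direction for 4 of the 5 genes between CPPE and nCPPE rats, all but Sst, beside 76.8% of all genes. Against Saline it did so for Penk, Pdyn and Tac1 in both the CPPE and the nCPPE comparison, but not for Cartpt or Sst, beside 66.6% and 68.2% of all genes. With the cocaine groups together it did so for 4 of 5, all but Sst (74.8% of all genes). Without Saline 2 all 5 intervals lay within 2-fold in each of the 3 comparisons of groups, where 87.9% (CPPE against nCPPE), 84.2% (CPPE against Saline) and 83.9% (nCPPE against Saline) of all genes did, and likewise with the cocaine groups together (86.8%). Pdyn was bounded most closely, at -0.20 to 0.16 between the cocaine groups without Saline 2 and -0.38 to 0.34 with all rats. These intervals assume that all groups share 1 spread. With all rats the coefficient of variation was largest in the Saline group for all 5 genes. For Sst it was 62.3% in Saline, 10.9% in CPPE and 9.24% in nCPPE rats, and for Cartpt 49.9%, 14.1% and 31.3%. The 95% level of the intervals with all rats is therefore not assured.

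**Figure D3:**
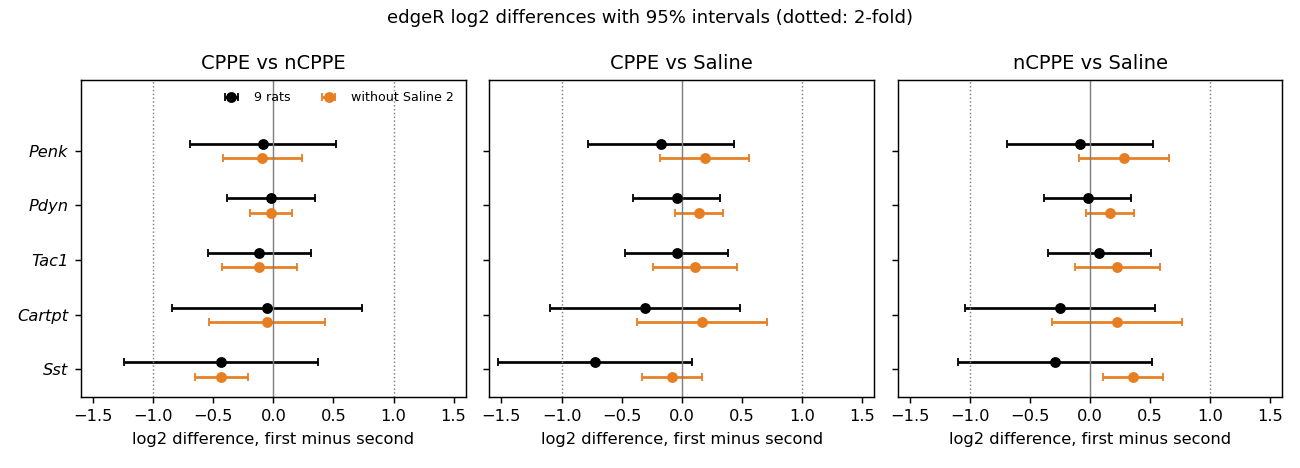
Log2 differences (first group minus second) of 5 peptide genes in 3 comparisons, with 95% intervals from edgeR over 9 rats (black) and without Saline 2 (orange). Dotted lines mark a 2-fold change. Orange points lie right of 0 in both Saline comparisons except for Sst in CPPE rats, whereas the black points lie left of 0 except for Tac1 in nCPPE rats.

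Ratios of counts between peptide genes of one rat do not depend on how libraries are scaled. The log2 ratio of Penk to Pdyn, an indirect-pathway against a direct-pathway precursor, was 1.19, 1.70 and 1.42 in the Saline rats, 1.51, 1.34 and 1.17 in the CPPE rats, and 1.36, 1.76 and 1.09 in the nCPPE rats. The nCPPE rats thus held both the highest and the lowest ratio of all 9, and the group means of 1.44 ± 0.26, 1.34 ± 0.17 and 1.40 ± 0.34 (SD, n = 3 each) differed by less than that spread. Without Saline 2 the Saline mean was 1.30, the lowest of the groups instead of the highest. Penk to Tac1 ran from 1.58 in nCPPE 3 to 2.63 in nCPPE 2, with group means of 2.25 ± 0.34 in Saline, 2.15 ± 0.32 in CPPE and 2.13 ± 0.53 in nCPPE rats. Saline was again the lowest group without Saline 2, at 2.09. Pdyn to Tac1, both direct-pathway precursors, covered 0.48 in nCPPE 3 to 1.02 in CPPE 1, and its group means were 0.81 ± 0.09 in Saline (0.79 without Saline 2), 0.81 ± 0.18 in CPPE and 0.73 ± 0.21 in nCPPE rats. These ratios compare counts, not molecules, since transcript lengths were not used here.

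Across rats, Tac1 and Cartpt went together most closely of the 10 pairs of genes. Pearson's r of log2 CPM over 9 rats was 0.84 (exact permutation p = 0.00381, adjusted over 10 pairs 0.0381) and Spearman's rho 0.82 (exact permutation p = 0.0108, adjusted 0.108). Of all tested genes, 0.392% had as high an r with Tac1 and 2.52% with Cartpt. Without Saline 2 r was 0.85 (exact permutation p = 0.00875, adjusted 0.0875), and without Saline 3 and nCPPE 3, the rats farthest from the median of Tac1, it was 0.78 (exact permutation p = 0.0319). Without Saline 2 and nCPPE 3, the rats farthest from the median of Cartpt, it was 0.72 (exact permutation p = 0.0766), and rho was 0.64 in both cases (exact permutation p = 0.139). The adjusted value passed 0.05 with all rats but not with library totals in place of TMM, nor without Saline 1, Saline 2, Saline 3 or nCPPE 3. Pdyn and Tac1, made in the same direct-pathway neurons, had an r of 0.71 (exact permutation p = 0.0289, adjusted 0.0642), and 0.64 without Saline 2 (exact permutation p = 0.0872). Without Saline 2 and Saline 3, the rats farthest from the median of Pdyn, it was 0.31 (exact permutation p = 0.495), and without those farthest for Tac1 (Saline 3 and nCPPE 3) it was 0.72 (exact permutation p = 0.0687). Pdyn and Cartpt had an r of 0.79 (exact permutation p = 0.0138, adjusted 0.0642), which fell to 0.13 without Saline 2 and Saline 3 (exact permutation p = 0.780) and to 0.51 without Saline 2 and nCPPE 3 (exact permutation p = 0.241).

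Penk and Pdyn, the opioid precursors, had an r of 0.71 (exact permutation p = 0.0362, adjusted 0.0642), with 0.30 without Saline 2 (adjusted exact permutation p = 0.706) and 0.85 without nCPPE 2 (adjusted exact permutation p = 0.0445). The r of Penk with Cartpt was 0.34 over all rats (exact permutation p = 0.368) and -0.56 without Saline 2 (exact permutation p = 0.156, rho -0.74 with exact permutation p = 0.0458, adjusted 0.229). The positive value thus rested on Saline 2, and the negative one did not pass its correction. Sst had an r of 0.73 with each of Penk, Pdyn and Cartpt over 9 rats (exact permutation p = 0.0385, 0.0526 and 0.0342, adjusted 0.0642, 0.0752 and 0.0642). Without Saline 2 these were 0.16, 0.12 and 0.21 (exact permutation p = 0.694, 0.785 and 0.618), so they rested on that rat. The other pairs, Penk with Tac1 and Tac1 with Sst, had adjusted exact permutation p of 0.699 and 0.101. The points of each pair share libraries and their scaling.

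**Figure D4:**
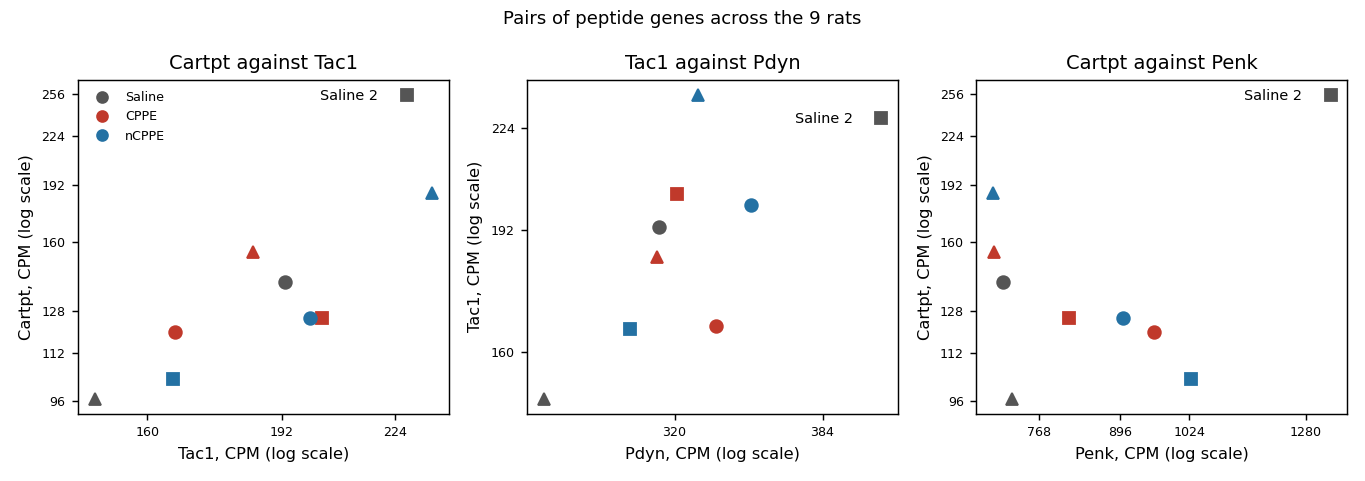
Pairs of peptide genes across 9 rats, in TMM-scaled CPM on log axes, coloured by group and with the rat number as symbol. Cartpt climbs with Tac1 (r = 0.84), Tac1 with Pdyn less closely (r = 0.71), and Cartpt falls with Penk among the rats other than Saline 2 (r = -0.56), which sits alone at the upper right of that panel.

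The sequence before the starts of Tac1 and Cartpt, the pair with the highest r, and of Sst, the peptide gene whose cocaine groups did not overlap (as in 8.49% of all genes), is shown from RefSeq on the GRCr8 build. The table held a promoter for 5 of the 6 genes, all but Penk. Each sequence runs 5′ to 3′ on the strand of the gene, from 250 bases before to 30 bases after the annotated start. Capitals mark TGACG on either strand, the core of the cAMP response element through which CREB proteins are known to act on peptide genes. Tac1 is at chr4:36645333-36645612 on the plus strand, Cartpt at chr2:32991206-32991485 on the minus strand and Sst at chr11:90461296-90461575 on the plus strand.
Tac1: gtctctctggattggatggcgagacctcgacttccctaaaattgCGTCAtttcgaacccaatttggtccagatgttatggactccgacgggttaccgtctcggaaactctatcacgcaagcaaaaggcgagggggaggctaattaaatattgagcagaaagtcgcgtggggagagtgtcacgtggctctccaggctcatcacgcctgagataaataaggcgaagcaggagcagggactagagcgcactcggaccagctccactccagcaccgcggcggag
Cartpt: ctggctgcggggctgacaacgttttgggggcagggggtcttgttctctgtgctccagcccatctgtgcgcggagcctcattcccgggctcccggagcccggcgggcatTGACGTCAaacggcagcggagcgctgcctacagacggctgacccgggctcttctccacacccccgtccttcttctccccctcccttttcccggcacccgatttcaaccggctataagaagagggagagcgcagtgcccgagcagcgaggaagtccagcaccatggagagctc
Sst: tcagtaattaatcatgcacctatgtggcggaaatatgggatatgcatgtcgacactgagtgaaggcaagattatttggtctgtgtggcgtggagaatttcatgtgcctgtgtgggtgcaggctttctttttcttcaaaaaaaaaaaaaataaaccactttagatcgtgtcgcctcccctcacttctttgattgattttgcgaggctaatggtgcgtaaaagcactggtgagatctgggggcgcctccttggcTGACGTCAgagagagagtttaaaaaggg

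The core occurred in 3 of the 5 promoters, those of Tac1, Cartpt and Sst, and in 20.2% of 33469 promoters of the same length. In Cartpt and Sst a copy on each strand overlapped to form the full palindrome, which 1.78% of promoters held. Counted from the annotated start, its first base was at -142 in Cartpt and at 3 in Sst, and the copy in Tac1 began at -206. The annotated start of Sst lies just before this element and may not be the start used in the accumbens, so its position there holds for the annotation alone. Pdyn and Npy had no TGACG in this window. The AP-1 motif TGANTCA was found in none of the 5 (2342 of all 33469 promoters), and TATAAA in Pdyn alone (13.7% of all). These are matches of letters, and no binding was measured.

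Over 11272 other genes averaging 5 CPM or more, the closest pattern over 9 rats to each peptide gene is given by identifier, since names are lacking. ENSRNOG00000013794 followed Cartpt with r = 0.98 over all rats and 0.96 without Saline 2, and was the closest gene in both sets. ENSRNOG00000006663 likewise led for Pdyn in both, with r = 0.97 and 0.96. For Sst, ENSRNOG00000020016 had r = 0.99 and 0.96. Penk was followed by ENSRNOG00000007478 (0.98 and 0.96) and Tac1 by ENSRNOG00000013898 (0.95 and 0.95). Each is the highest of 11272 correlations over 9 rats and carries no test.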

How the data were processed

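Libraries of poly(A) RNA, from an input of 300 ng, were made with the TruSeq Stranded mRNA kit, which keeps strand, per the labels' protocols. bcl2fastq 2.18.0.12, STAR and HTSeq 0.5.3 are named in the submitters' processing notes. Genome build, annotation, STAR version and strand setting of the counting: not given in the sources used here. Raw counts per Ensembl gene, without normalization, were deposited by the authors in 36 files of 6771828 to 9961469 counts. The 4 technical replicates of a rat did not differ beyond sampling noise (chi-square per degree of freedom 1.00 to 1.02) and were summed, so each rat counted as 1 sample.

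The main test was edgeR 4.0.16 under R 4.3.3 (filterByExpr, TMM, quasi-likelihood F-test, group as sole factor, all 9 rats in 1 fit, Benjamini-Hochberg over 15555 genes). The procedure was also run on simulated counts. These held no library that diverged as Saline 2 did, so nothing about such a library is drawn from them. Relations across rats used log2 CPM and two-sided exact permutation tests over all pairings, adjusted over 10 pairs, since Npy could not enter. Alternatives were DESeq2 1.42.0, limma 3.58.1 (voom with quality weights), library totals without TMM, no filter, only the groups compared, the rat number as a block, each rat left out and, added after the data were seen, DESeq2 without Saline 2. All 6 genes were named whatever their values; the genes closest in pattern were the 2 with the highest r for each, of which the first is printed. The members and lists were chosen with earlier results of these data known. The 4 lists fixed by symbol (cell type markers, processing enzymes, receptors, other precursors) could not be tested, since 0 identifiers of the files were paired with symbols. The RefSeq tables used are on GRCr8.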

Additional observations from a re-analysis of the deposited data

How the results depend on the processing

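No peptide gene passed an adjusted p of 0.05 in any comparison under any alternative, but 12 of 20 directions turned in edgeR without Saline 2. All 12 were in comparisons with Saline rats, which overlap in their rats and are not independent. Saline 2 enters neither mean of CPPE against nCPPE, and the share of all genes that turned is not given here. DESeq2 called 2 genes in CPPE against nCPPE, 0 in CPPE against Saline, 2 in nCPPE against Saline and 1 with all cocaine rats, none of them a peptide gene. DESeq2 without Saline 2, an alternative chosen after seeing the data, called 1, 12, 6 and 27. In CPPE against nCPPE, reversed log2 differences under limma-voom with quality weights were 0.074 for Cartpt. In CPPE against Saline, reversed log2 differences under limma-voom with quality weights were 0.16 for Penk, 0.13 for Pdyn, 0.058 for Tac1 and 0.17 for Cartpt. In nCPPE against Saline, reversed log2 differences under limma-voom with quality weights were 0.30 for Penk, 0.19 for Pdyn, 0.10 for Cartpt and 0.27 for Sst. In all cocaine rats against Saline, reversed log2 differences under limma-voom with quality weights were 0.23 for Penk, 0.16 for Pdyn, 0.13 for Cartpt and 0.063 for Sst. In CPPE against Saline, reversed log2 differences under DESeq2 without Saline 2 were 0.19 for Penk, 0.14 for Pdyn, 0.11 for Tac1 and 0.17 for Cartpt. In nCPPE against Saline, reversed log2 differences under DESeq2 without Saline 2 were 0.28 for Penk, 0.16 for Pdyn, 0.22 for Cartpt and 0.35 for Sst. In all cocaine rats against Saline, reversed log2 differences under DESeq2 without Saline 2 were 0.24 for Penk, 0.15 for Pdyn, 0.19 for Cartpt and 0.14 for Sst. In nCPPE against Saline, reversed log2 differences under library totals alone were 0.013 for Pdyn. In all cocaine rats against Saline, reversed log2 differences under library totals alone were 0.0019 for Pdyn. Leaving out 1 rat at a time in CPPE against nCPPE gave -0.23 to 0.038 for Penk, -0.074 to 0.033 for Pdyn, -0.24 to 0.015 for Tac1, -0.23 to 0.22 for Cartpt and -0.52 to -0.36 for Sst. Leaving out 1 rat at a time in CPPE against Saline gave -0.32 to 0.19 for Penk, -0.17 to 0.14 for Pdyn, -0.19 to 0.11 for Tac1, -0.57 to 0.17 for Cartpt and -0.98 to -0.078 for Sst. Leaving out 1 rat at a time in nCPPE against Saline gave -0.23 to 0.28 for Penk, -0.15 to 0.16 for Pdyn, -0.071 to 0.23 for Tac1, -0.52 to 0.22 for Cartpt and -0.55 to 0.35 for Sst. Leaving out 1 rat at a time in all cocaine rats against Saline gave -0.28 to 0.24 for Penk, -0.16 to 0.15 for Pdyn, -0.13 to 0.17 for Tac1, -0.55 to 0.19 for Cartpt and -0.77 to 0.14 for Sst. The cause of these changes was not tested. Of the 10 pairs, 1 passed with all rats, 0 with library totals, and 0 to 4 with 1 rat left out. Over these, r ran from -0.34 to 0.42 for Penk and Tac1 and from -0.56 to 0.53 for Penk and Cartpt.

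Rats of different groups share numbers in the labels. Over 9 same-numbered pairs, deviations from the group means correlated at -0.43 to 0.27, 3 of them above 0.1. By this measure 0 rats were closest to their own number in both other groups, though some were in 1 of them, such as Saline 1 with nCPPE 1 (0.25). With 3 rats per group this check cannot exclude a pairing, and no conclusion is drawn from it. The replicate block left 0 genes called in each comparison and changed no call, and Sst in CPPE against nCPPE was at -0.44 with it. Counting error was at most 2.24% for the 5 detected genes, while the common edgeR estimate of variation between rats was 26.2%, or 11.8% without Saline 2.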
